A study of Homo sapiens with 6 samples.

Results

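Long intergenic RNAs and the host genes of small RNAs were followed in LS 174T cells after 4 h with 4 mM propionate. LS 174T is a line from a human colorectal adenocarcinoma, used as a model of mucin-secreting goblet cells. Members were the gene symbols that start with LINC and a digit or with SNHG, together with GAS5, DANCR, H19, MALAT1 and NEAT1, wherever the 6 libraries held at least 30 reads in sum. Of 24462 symbols, 904 matched by name; 412 of these had no read, 297 had 1 to 29 reads and 195 were members. The members were 172 LINC symbols, 20 small nucleolar RNA (snoRNA) hosts, the microRNA host H19, and the nuclear body RNAs MALAT1 and NEAT1. No host gene was analysed here under a symbol of the form MIR with the ending HG; RefSeq now names LINC00969 and LINC00669 as MIR570HG and MIR924HG, and both were counted as LINC. At the edge of the rule, LINC00477 and LINC00870 had 30 reads and were kept, while LINC00114, LINC00518, LINC01433 and LINC01465 had 29.

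The libraries were 3 of cells given propionate, which is a short-chain fatty acid made by bacteria in the colon, and 3 of untreated control cells, both at passages that the labels give as one shared range. Per the labels, total RNA went into a Lexogen QuantSeq kit, which reads the 3′ ends of polyadenylated transcripts, so each read stands for an end of a transcript and not for its length. This rests on the kit's name, since its catalogue number is not clearly that of the 3′ kit and read positions were not analysed here. The line is a single tumour-derived line, and the labels do not tell whether the 3 libraries of a group are separate cultures or repeats of 1 RNA. The p-values measure only the spread between these samples, which could be technical.

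Many long noncoding RNAs, though not all, are spliced and polyadenylated like messenger RNAs. They are not thought to code for proteins, and several act in the nucleus, on neighbouring genes or as scaffolds of nuclear bodies. The snoRNA host genes are transcribed mainly for their introns, which hold box C/D snoRNAs, guides of ribose methylation, or box H/ACA snoRNAs, guides of pseudouridylation of ribosomal RNA. Many host transcripts begin with a 5′ terminal oligopyrimidine (TOP) tract, as ribosomal protein messenger RNAs do, and once spliced they are often removed by nonsense-mediated decay. H19 is an imprinted RNA that is cut to give miR-675.

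Sequences of some hosts are shown first. The 5′ ends below are the first 30 bases of 1 GENCODE 29 transcript (GRCh38) each, with a TOP start, here a C followed by at least 4 pyrimidines, in capitals where the transcript has one. Where any transcript of a host had such a start, one with it is shown, which stands for 6 of 29 transcripts of GAS5, 1 of 5 of SNHG8, 3 of 23 of SNHG5, 2 of 8 of SNHG16, 1 of 1 of SNHG19 and 2 of 2 of SNHG25. They are shown for hosts that were lower with propionate (GAS5, SNHG8, DANCR, SNHG17) and for hosts that did not pass the test (SNHG19, SNHG25, SNHG5, SNHG16). SNHG7, SNHG9, SNHG21 and SNHG22, which did not pass either, have no such start and are not shown.
GAS5: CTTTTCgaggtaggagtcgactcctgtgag
SNHG8: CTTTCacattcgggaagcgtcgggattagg
DANCR: agagtcttcccgggattggctgcgggcctc
SNHG17: cgtagcttccttgtcgtgtggcctcagtcc
SNHG19: CTTTTCggggtcgagtccgagggggaagag
SNHG25: CTTTCagcgcctgcaggttccgggagctcc
SNHG5: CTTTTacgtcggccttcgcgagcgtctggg
SNHG16: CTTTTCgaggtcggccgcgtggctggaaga

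The snoRNAs carried by 3 hosts that were lower are of the H/ACA class, with the ACA box in capitals near the 3′ end. SNORA26 lies in DANCR (GRCh38, chr4:52713249-52713370, plus strand), SNORA24 in SNHG8 (chr4:118279190-118279320, plus strand) and SNORA9 in SNHG15 (chr7:44985378-44985510, minus strand). SNORD27 from SNHG1 (chr11:62855012-62855083, minus strand), a host that did not pass the test, is shown for comparison with its box C and box D in capitals.
SNORA26: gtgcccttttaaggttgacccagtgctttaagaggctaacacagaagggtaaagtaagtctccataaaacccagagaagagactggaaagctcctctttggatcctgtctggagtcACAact
SNORA24: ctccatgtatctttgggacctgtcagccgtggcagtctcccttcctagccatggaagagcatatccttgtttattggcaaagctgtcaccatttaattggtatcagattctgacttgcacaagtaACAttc
SNORA9: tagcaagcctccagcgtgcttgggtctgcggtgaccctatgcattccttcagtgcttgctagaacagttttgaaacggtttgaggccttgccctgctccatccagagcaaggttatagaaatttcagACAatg
SNORD27: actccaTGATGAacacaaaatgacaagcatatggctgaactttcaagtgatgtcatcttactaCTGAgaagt

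Both mature arms of miR-675, the product of H19, are shown as RefSeq gives them (GRCh38.p14, chromosome 11), with the seed, bases 2 to 8, in capitals. Their seeds differ. Mature snoRNAs and microRNAs have no poly(A) tail, so the values below are those of the host transcripts and not of the small RNAs.
miR-675-5p: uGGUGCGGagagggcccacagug
miR-675-3p: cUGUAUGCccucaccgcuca

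Library totals ranged from 11645597 to 12746170 reads with propionate and from 11603288 to 11921005 reads in control, so that 3 reads, the limit that a count of 0 allows, stood for 0.235 to 0.259 CPM, reads per 1000000 after scaling. All 10 colon epithelium markers had reads, with a summed level of 5030 to 5640 CPM with propionate and 4280 to 5160 CPM in control. The 10 markers of other cell types summed to 5.58 to 7.31 CPM with propionate and 1.33 to 3.06 CPM in control. COL1A1 was higher, and CD3E and VWF were at 0. Their part in the results below was not tested.

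Many members passed the test, at a rate near that of genes in general. Of the 156 members with enough reads to be tested, 23 were higher and 27 lower at a Benjamini-Hochberg adjusted p under 0.05 in edgeR's quasi-likelihood test, 32.1% in all. Among all 13605 genes tested, 34.2% passed, 17.2% higher and 17% lower, so the members' share lay near the background. The median log2 fold change, propionate over control, was -0.002 over the tested members and -0.007 over all genes tested. In 32 members all 3 propionate libraries lay above all 3 control libraries, 20.5% against a background of 22.4%, and in 40 they lay below, 25.6% against 22.7%. In bulk RNA, a change in the number of cells that carry a transcript and a change per cell cannot be told apart.

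By class, MALAT1 and NEAT1 were both higher, LINC members were higher 20 times and lower 20 times among 134 tested, and snoRNA hosts were lower 7 times and higher once among 19 tested. Changes of at least 2-fold were found in 12 LINC members that were higher (all genes: 5.01%) and in 3 that were lower (all genes: 1.98%), and in no host. Summed over the class, the hosts held 2773 ± 44.1 CPM with propionate and 3082 ± 67.9 CPM in control (SD, n = 3 each), a ratio of 0.900. The LINC members summed to 1560 ± 30.6 CPM with propionate and 1565 ± 24.5 CPM in control (SD, n = 3 each), which differed by less than the spread between libraries. All members together took 1.22 to 1.29% of reads with propionate and 1.04 to 1.08% in control; without MALAT1 and NEAT1 their sum was 4662 ± 179 CPM with propionate and 4897 ± 71.3 CPM in control (SD, n = 3 each).

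**Figure D1:**
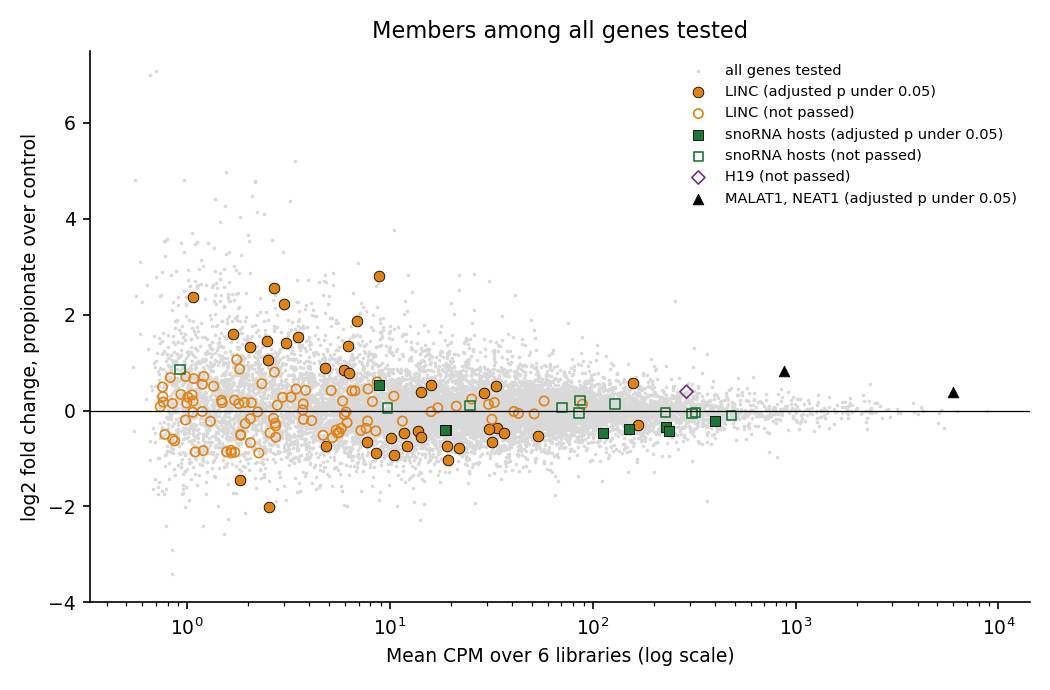
Log2 fold change, propionate over control, against mean CPM over the 6 libraries (log scale) for the members, drawn over all genes tested (grey). Filled symbols passed the adjusted p of 0.05. The changes of at least 2-fold belong to LINC members (orange), MALAT1 and NEAT1 (triangles) lie above 0 at the right, and 7 of the 8 hosts that passed (squares) lie below 0.

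The composition of transcripts moved with treatment over all genes, and this is set beside the counts above. Of 5 equal groups of genes by GC content, the richest (median 61.5%) had 867 higher and 242 lower genes, and the poorest (median 38.5%) had 208 higher and 608 lower. The members' median GC content was 47.9% in those that were higher, 47.5% in those that were lower and 49.6% in those that did not pass. With GC trends taken out per library and the replicate number as a block, 27 members were higher and 38 lower, beside 19.4% higher and 24.5% lower among all genes in the same fit, and 49 of the 50 calls kept their direction and passed.

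MALAT1 and NEAT1, neighbours on chromosome 11, were higher with propionate. MALAT1 is a nuclear RNA held in speckles, the stores of splicing factors. It had 6414, 7097 and 6733 CPM with propionate, against 5396, 5277 and 4879 CPM in control. The lowest propionate library lay above the highest control library, and MALAT1 was 1.30-fold higher (log2 fold change 0.38, SE 0.0724, edgeR adjusted p = 0.000441). Read positions were not analysed here, so which part of MALAT1 the reads came from, or whether they mark its 3′ end, is not known.

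NEAT1 is the scaffold of paraspeckles, nuclear bodies that retain RNAs and proteins. Its level was 1155, 1180 and 1023 CPM with propionate, against 644, 663 and 586 CPM in control. The groups did not overlap, and NEAT1 was 1.77-fold higher (log2 fold change 0.83, SE 0.0813, edgeR adjusted p = 3.86e-07). NEAT1 has a short polyadenylated isoform and a long one with no poly(A) tail, and the counts do not separate them.

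A coding gene beside this pair was higher as well. FRMD8, 9.2 kb from NEAT1 in GENCODE 29, had a log2 fold change of 0.85 (edgeR adjusted p = 2.67e-07). In the lists of genes for both bodies, none was higher by edgeR, at an unadjusted p under 0.05, or by DESeq2 or limma-voom. Of 20 paraspeckle protein genes tested, 7 were lower (all genes: 17%, and 21.4% at 20 CPM or more). RBM14 (log2 fold change -0.72, edgeR adjusted p = 2.51e-05) and SFPQ (-0.39, 0.000573) had the smallest p. Of 16 genes for speckle proteins and for factors that process or modify MALAT1, 7 were lower, among them SRRM2, the speckle scaffold (-0.47, 8.80e-05), METTL16, which binds the triple helix of MALAT1 (-0.61, 0.000105), and the splicing factor SRSF1 (-0.53, 0.000492).

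H19 did not pass the test. It had 207, 398 and 382 CPM with propionate, against 177, 284 and 290 CPM in control. In each group 1 library, number 1, was low, and the groups overlapped. The log2 fold change was 0.39 (SE 0.184, edgeR adjusted p = 0.107). With the replicate number as a block it was 0.37 with an adjusted p of 2.85e-06. With GC trends removed as well, the log2 fold change did not pass, and its lowest value over all 18 alternatives was 0.10. With 1 library left out at a time it lay between 0.19 (without control library 1, adjusted p = 0.411) and 0.64 (without propionate library 1, adjusted p = 0.00402); it passed without propionate library 1 and without control library 3 (0.51, 0.0443) and in no other of the 6. Of 6 tested genes of the H19 and IGF2 axis, 1 was higher and 2 were lower. Among all genes 17.2% were higher and 17% lower, and at 20 CPM or more 17.3% and 21.4%. IGF2BP2, a binder of IGF2 messenger RNA, was higher (0.25, 0.0302). CTCF, the factor bound at the imprinting centre (-0.54, 0.000191), and HMGA2 (-0.52, 0.00361) were lower. IGF2 itself had 16 reads in all and was not tested.

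**Figure D2:**
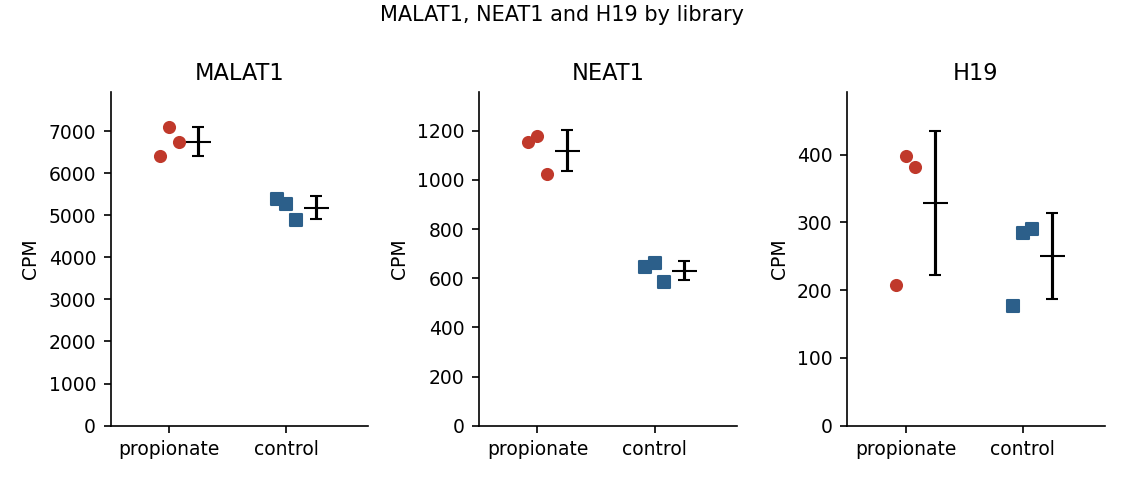
CPM of MALAT1, NEAT1 and H19 in each of the 3 propionate libraries (circles) and 3 control libraries (squares), with the mean and SD beside each group. Propionate libraries lie above control for MALAT1 and NEAT1; for H19, 1 library of each group lies low and the groups overlap.

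Among 18 tested genes of microRNA processing, 6 were lower and 1 was higher, where 17% of all genes were lower and 17.2% higher. At 20 CPM or more, 21.4% of all genes were lower and 17.3% higher. The lower ones included DDX5, a helicase of the Microprocessor (log2 fold change -0.63, edgeR adjusted p = 4.22e-06), DGCR8, the partner of DROSHA (-0.70, 7.19e-05), RAN (-0.42, 0.000152) and TARBP2, a partner of DICER (-0.63, 0.000268). XPO5, the exporter of precursor microRNAs, was higher (0.30, 0.0393), but not by DESeq2.

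Among the snoRNA hosts, 7 of 19 were lower, 36.8% against 17% of all genes, and 1 was higher. The tested hosts had a median level of 113 CPM, and among all genes at 20 CPM or more 21.4% were lower and 17.3% higher. The falls were of modest size, between -0.22 and -0.48 on the log2 scale. The 4 that passed at an adjusted p under 0.01 were DANCR, SNHG8, GAS5 and SNHG17, and these passed without any 1 of the 6 libraries. Without propionate library 1, 4 hosts were lower instead of 7.

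DANCR holds SNORA26 and is known as an RNA that keeps progenitor cells undifferentiated. It had 102, 86.7 and 94.3 CPM with propionate, against 133, 123 and 137 CPM in control. No propionate library reached the control range, and DANCR was 1.39-fold lower (log2 fold change -0.48, SE 0.0876, edgeR adjusted p = 0.000327). SNHG8, the host of SNORA24, had 189, 226 and 195 CPM with propionate, against 270, 275 and 271 CPM in control. The control libraries lay within 5 CPM of each other, all above the propionate ones (log2 fold change -0.42, SE 0.0837, adjusted p = 0.000660).

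GAS5 carries a row of snoRNAs, nearly all of the box C/D class, and is known to rise when growth stops and translation is blocked. Its level was 195, 205 and 208 CPM with propionate, against 244, 279 and 252 CPM in control. The groups did not overlap (log2 fold change -0.35, SE 0.0810, edgeR adjusted p = 0.00222). SNHG17 holds several SNORA71 copies. It had 142, 119 and 132 CPM with propionate, against 187, 165 and 159 CPM in control. It too fell in every propionate library relative to every control library (-0.38, SE 0.0899, adjusted p = 0.00287).

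The other 3 falls were less firm, and each lost its call in some of the fits that left out 1 library. SNHG6, the host of SNORD87, had 349, 380 and 382 CPM with propionate, against 423, 427 and 446 CPM in control (log2 fold change -0.22, edgeR adjusted p = 0.0305). SNHG15 had 17.2, 16.7 and 14.8 CPM with propionate, against 24.1, 17.9 and 22.1 CPM in control (-0.40, 0.0365). SNHG10, which holds the Cajal body RNA SCARNA13, had 14.0, 17.4 and 17.2 CPM with propionate, against 20.2, 22.7 and 21.2 CPM in control (-0.40, 0.0273). The groups did not overlap in any of the 3. The adjusted p rose to 0.0521 to 0.159 for SNHG15 in 5 of the 6 fits that left out 1 library and to 0.0647 with DESeq2, to 0.0504 to 0.130 for SNHG6 in 5, and to 0.0930 and 0.126 for SNHG10 without control library 2 and without propionate library 1. SNHG10 overlaps GLRX5 on the opposite strand, which was higher (0.40, 0.000592), and since no source states whether counting used strand, their reads cannot be told apart.

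SNHG18, the host of SNORD123, was the 1 host that was higher. It had 10.9, 9.15 and 11.2 CPM with propionate, against 7.95, 6.92 and 6.66 CPM in control. The ranges were apart (log2 fold change 0.53, SE 0.178, edgeR adjusted p = 0.0255), but SNHG18 did not pass in 4 of the 6 fits that left out 1 library (without propionate library 1 or 3, or control library 2 or 3), where the adjusted p was 0.0700 to 0.0874. SEMA5A, a membrane semaphorin gene 0.1 kb away on the other strand, was also higher (0.76, adjusted p = 0.0258).

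The 11 hosts that did not pass lay between -0.11 and 0.85 on the log2 scale. SNHG1, the host of a cluster of box C/D snoRNAs, had 313, 356 and 282 CPM with propionate, against 325, 360 and 291 CPM in control, a difference of -0.04 (SE 0.0954, edgeR adjusted p = 0.805). SNHG5, SNHG9, SNHG16, SNHG19 and SNHG21 differed by less than 0.1 on the log2 scale in either direction. SNHG19, host of SNORD60, was below control in every propionate library, at 299, 300 and 305 CPM, against 314, 305 and 329 CPM in control, but by 1.05-fold (-0.07, adjusted p = 0.527); with the replicate block and GC trends removed it was lower (-0.21, adjusted p = 0.00158). SNHG12 lay above control in every propionate library, at 92.1, 96.0 and 89.9 CPM, against 88.6, 83.8 and 68.4 CPM in control (0.21, adjusted p = 0.108; with the replicate block, adjusted p = 0.0128). With GC trends removed as well, SNHG12 did not pass, and its lowest log2 fold change over all 18 alternatives was 0.06.

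**Figure D3:**
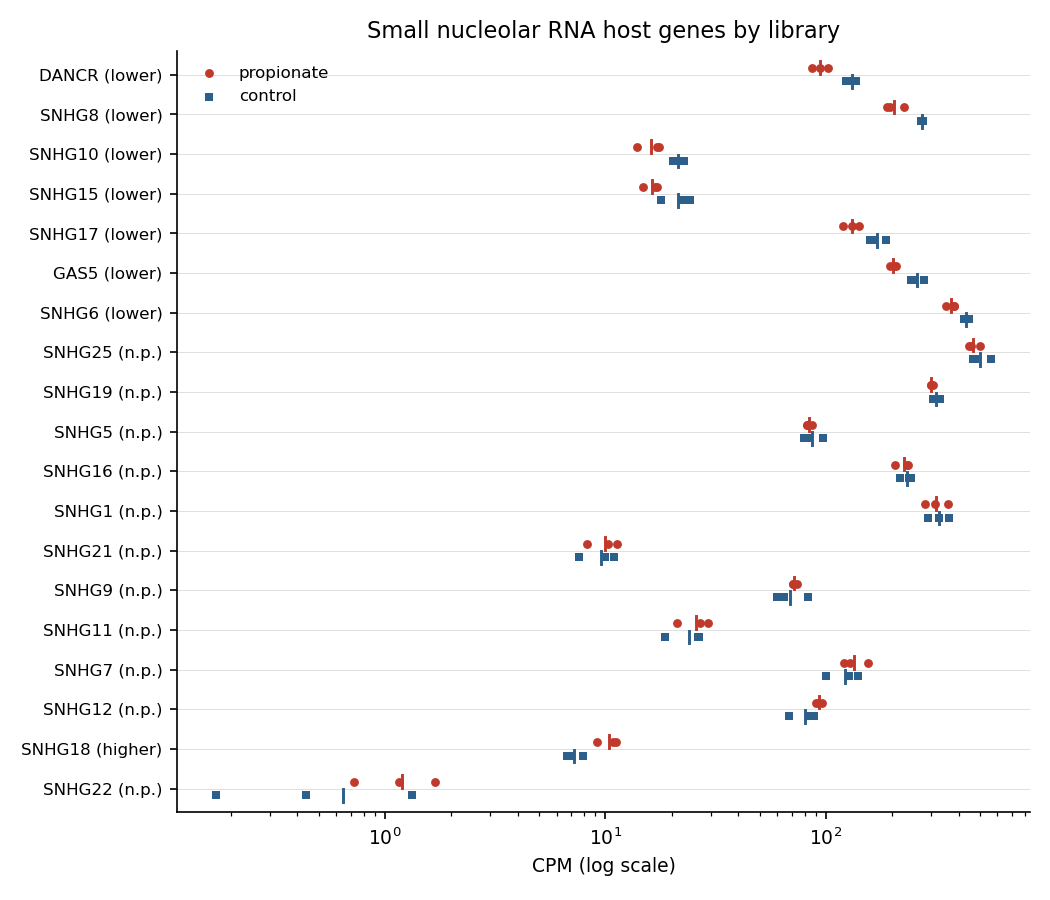
CPM (log scale) of the 19 tested snoRNA hosts in the 3 propionate libraries (circles, upper row of each gene) and the 3 control libraries (squares, lower row), with a bar at each group's mean, ordered by fold change; n.p. marks hosts that did not pass. In the 7 genes marked lower, no circle reaches the squares.

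Sorted by the small RNAs that RefSeq places inside them, the hosts of box H/ACA snoRNAs alone were lower in 4 of 7 tested (DANCR, SNHG8, SNHG15 and SNHG17), with a median log2 fold change of -0.38. The hosts of box C/D snoRNAs alone were lower in 1 of 7 and higher in 1 of 7, with a median of -0.05. GAS5, for which RefSeq lists SNORA103 beside its box C/D snoRNAs, was counted as 1 of 2 mixed hosts, and SNHG10 was the 1 of 3 scaRNA hosts that was lower. Calls in both classes depended on the fit. With the replicate block and GC trends removed, SNHG7 and SNHG9 (H/ACA) and SNHG19 and SNHG25 (C/D) were lower as well. SNHG15 (H/ACA) and SNHG6 (C/D) lost their calls in most fits that left out 1 library. The difference between these classes was not tested.

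The genes of proteins that package these snoRNAs were counted by class, beside 17% lower among all genes (21.4% at 20 CPM or more). Of 8 genes for box H/ACA proteins and their assembly, 4 were lower and none was higher (1 at an unadjusted p under 0.05, none by DESeq2), including COIL, the scaffold of Cajal bodies (log2 fold change -1.05, edgeR adjusted p = 2.46e-07), GAR1 (-0.46, 0.000539) and the pseudouridine synthase DKC1 (-0.36, 0.00169). Of 12 for box C/D, 4 were lower and none higher (1 at an unadjusted p under 0.05, none by DESeq2), with NOP58 (-0.33, 0.00338), ZNHIT3 (-0.37, 0.00421) and NOP56 (-0.29, 0.00878) leading. The median over the list was -0.33 for H/ACA and -0.02 for C/D, beside -0.007 for all genes. The lists are not like for like. COIL, a Cajal body protein, was counted with H/ACA. RUVBL1 (-0.02), RUVBL2 (0.18), PIH1D1 (0.05), RPAP3 (0.21) and NOLC1 (-0.02), which are not particular to C/D, were counted only there. The difference between the lists was not tested. Protein-coding genes with snoRNAs in their introns were lower in 8 of 29 and higher in none (none at an unadjusted p under 0.05 or by DESeq2), with TNPO2 (-0.62, 6.02e-05) and RCC1 (-0.62, 0.000797) having the smallest p.

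A TOP start was found in at least 1 GENCODE transcript of 12 of the 20 hosts, against 6.58% of all GENCODE genes. These shares are not like for like, since a gene with more annotated transcripts has more starts to count. SNHG1 had such a start in 1 of 25 transcripts, SNHG11 in 1 of 15 and GAS5 in 6 of 29, but SNHG19 in 1 of 1 and SNHG25 in 2 of 2. Over all GENCODE transcripts the share was 2.41%. Of the 7 hosts that were lower, 3 had one (GAS5, SNHG6 and SNHG8), as had 7 of the 11 that did not pass and SNHG18. DANCR, SNHG10, SNHG15 and SNHG17 had none in any annotated transcript, as the 5′ ends printed above show for 2 of them. Only annotated starts were read, so which start LS 174T cells use is not known from these data.

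Genes of decay factors that act on such transcripts were also followed, with the same 17% of all genes lower as background (21.4% at 20 CPM or more). Of 17 nonsense-mediated decay genes tested, 6 were lower and none higher (none at an unadjusted p under 0.05 or by DESeq2), led by SMG5 (log2 fold change -1.02, edgeR adjusted p = 0.000128) and SMG8 (-0.72, 0.000240). Of 20 nuclear exosome genes, which degrade many nuclear noncoding RNAs, 8 were lower, among them PAPD7 (-0.94, 4.16e-06), EXOSC6 (-0.64, 0.000140) and EXOSC8 (-0.50, 0.000233). The poly(A) polymerase PAPD5 (0.59, 2.00e-05) and the nuclease DIS3 (0.35, 0.00403) were higher.

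Among the LINC members, 12 were higher and 3 lower by at least 2-fold, all with under 20 CPM on average. The share that passed grew with level, as it did for all genes: none of 13 tested under 1 CPM (also none at an unadjusted p under 0.05 or by DESeq2), 10 higher and 3 lower of 61 from 1 to under 5 CPM, 7 higher and 10 lower of 40 from 5 to under 20 CPM, and 3 higher and 7 lower of 20 at 20 CPM or more. Over all genes the shares called in these 4 ranges were 19.8%, 23.2%, 34.2% and 38.7%. The shares lower were 5.46%, 5.96%, 17% and 21.4%, and the shares higher 14.4%, 17.3%, 17.2% and 17.3%. The share of falls thus grew with level in all genes as well. A gene with few reads enters the test if it has them in the libraries of 1 group, so the low ranges favour genes that differ. Of the 12 higher by at least 2-fold, LINC01511, LINC00176, LINC00672 and LINC00663 entered only with their propionate reads. Among the 12 tested members that RefSeq now lists as protein-coding, 4 were higher and 5 lower, 75.0%, while among the other 122, 16 were higher and 15 lower, 25.4%, against 34.2% of all genes. The median level was 14.0 CPM in these 12 and 3.47 CPM in the others, so level moved with this split and its part was not tested.

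LINC00341 had the largest rise among the members tested. RefSeq lists this symbol, on chromosome 14, as an older name of SYNE3, the gene of a nuclear envelope nesprin; the deposited symbol SYNE3 itself had 16 reads in all. LINC00341 had 17.3, 15.6 and 13.3 CPM with propionate, against 2.36, 3.08 and 1.17 CPM in control. Every propionate library was above 13 CPM and no control library above 3.1 CPM, and the difference was 6.99-fold (log2 fold change 2.80, SE 0.247, edgeR adjusted p = 1.05e-07). On its sides, CLMN (1.39, 0.00214) and GLRX5 (0.40, 0.000592) were also higher.

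LINC01511, an RNA from chromosome 5, had 3.25, 5.22 and 5.24 CPM with propionate, against 1.14, 0.598 and 0.583 CPM in control. The groups did not overlap (log2 fold change 2.55, SE 0.373, edgeR adjusted p = 3.15e-05). With 13, 7 and 7 reads in control, it entered the test through its propionate reads. Its separation and p-value are thus a description only. LINC00672 from chromosome 17, which RefSeq now names LASP1NB and lists as coding, had 5.97, 4.01 and 4.82 CPM with propionate, against 1.49, 1.03 and 0.666 CPM in control. It was 4.65-fold higher (2.22, adjusted p = 5.34e-05). With 17, 12 and 8 reads in control, it also needed propionate reads to enter the test. LINC00173 from chromosome 12 was the most even of these, at 10.5, 11 and 10.7 CPM with propionate, against 3.32, 2.65 and 2.83 CPM in control (1.87, SE 0.205, adjusted p = 1.30e-06).

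LINC00176, now C20orf204, rested on few reads. It had 67 reads over the propionate libraries and 12 over the control libraries, of which 1 control library held none. LINC00176 thus entered the test through its propionate reads, and its values are a description only. Its log2 fold change of 2.37 (SE 0.659, edgeR adjusted p = 0.00882) became 1.91 without propionate library 2, where it did not pass (adjusted p = 0.0635), and 4.23 without control library 3.

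The next rises lay between 1.06 and 1.60 on the log2 scale: LINC00663, LINC00957, LINC00243, LINC01573, LINC00685, LINC01137 and LINC01389. All 7 had propionate libraries above every control library, and LINC01389 lost its call in 3 of the 6 fits that left out 1 library (propionate 1 or 3, control 3), with adjusted p of 0.0808 to 0.0962. LINC00663, with 10, 11 and 8 reads in control, needed propionate reads to enter the test. LINC00685 from chromosome X had 7.28, 11 and 8.37 CPM with propionate, against 4.02, 3.25 and 3.25 CPM in control (1.34, edgeR adjusted p = 0.000138). LINC00243 on chromosome 6 had 3.02, 3.29 and 4.57 CPM with propionate, against 1.66, 0.940 and 1.33 CPM in control (1.46, adjusted p = 0.00270). Its neighbour IER3, an early response gene 54.1 kb away, was higher too (1.31, adjusted p = 1.63e-08). DDR1 lies nearer on the other side, 45.8 kb away, and its value is not reported here. LINC01573, now NALT1, begins beside NOTCH1, the Notch receptor gene, which did not pass (-0.18, adjusted p = 0.234).

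LINC01296 was among the 6 LINC members of highest mean CPM and was higher. RefSeq names it DUXAP9, a transcribed pseudogene, and stretches of at least 98% identity are shared with DUXAP8 and DUXAP10, so its reads may have been split among them. It had 179, 197 and 193 CPM with propionate, against 128, 125 and 127 CPM in control. The groups lay apart (log2 fold change 0.58, SE 0.0795, edgeR adjusted p = 1.54e-05).

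LINC00657, now NORAD, an RNA that binds PUMILIO proteins and guards chromosome stability, was lower. It had 142, 142 and 167 CPM with propionate, against 192, 170 and 193 CPM in control. The groups did not overlap, by a small margin (-0.30, SE 0.0885, edgeR adjusted p = 0.0128), and the call was lost without propionate library 1 (adjusted p = 0.0635) or 2 (0.0620). LINC00987, LINC00342 and LINC00674, also among those 6, did not pass, with log2 fold changes of 0.13, 0.20 and -0.07. With the replicate block and GC trends removed, LINC00987 (0.21, adjusted p = 0.0494) and LINC00342 (0.28, adjusted p = 0.00908) were higher.

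LINC01241, an RNA from chromosome 9, had the largest fall among the members tested. It had 0.930, 0.883 and 1.18 CPM with propionate, against 4.28, 4.19 and 3.66 CPM in control. It was 4.03-fold lower, with 37 reads over the propionate libraries and 142 over the control libraries (log2 fold change -2.01, SE 0.332, edgeR adjusted p = 0.000110). LINC00899 from chromosome 22 was lower by -1.46 on the log2 scale (SE 0.40, adjusted p = 0.00814), with 36 reads over the propionate and 94 over the control libraries, but not past the threshold without control library 2 (-1.13, adjusted p = 0.0694).

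LINC01123 and LINC01106 on chromosome 2 share near-identical sequence, so reads may have been exchanged between them. LINC01123 had 12.1, 14.1 and 12.1 CPM with propionate, against 24.1, 24.8 and 29.1 CPM in control (log2 fold change -1.02, SE 0.136, edgeR adjusted p = 1.12e-05). LINC01106 had 19.3, 13.7 and 15.4 CPM with propionate, against 21.0, 24.5 and 37.0 CPM in control (-0.77, SE 0.179, adjusted p = 0.00242), and its value without control library 3 was -0.50 (adjusted p = 0.0203). Both fell with no overlap between groups.

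LINC01578, now CHASERR, lies 0.5 kb from CHD2, the gene of a chromatin remodeller that the mouse RNA is known to repress in cis. It had 45.9, 40.4 and 44.5 CPM with propionate, against 64.4, 60.5 and 64.6 CPM in control (log2 fold change -0.54, SE 0.0953, edgeR adjusted p = 0.000233). CHD2 had 136, 151 and 150 CPM with propionate, against 205, 226 and 218 CPM in control (-0.57, SE 0.0817, adjusted p = 2.50e-05). Both were thus lower, by like amounts, and neither gene's groups overlapped.

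Other falls between -0.48 and -0.93 were found in LINC00938, LINC01089, LINC01000, LINC01560, LINC01003, LINC00265, LINC00493, LINC00909, LINC01207 and LINC00261. LINC00493, now SMIM26, codes for a small mitochondrial protein and had 24.4, 21.3 and 28.2 CPM with propionate, against 41.2, 33.1 and 41.8 CPM in control (-0.65, edgeR adjusted p = 0.000523). LINC00261, known from definitive endoderm, overlapped between groups and was at the edge of the threshold (-0.48, adjusted p = 0.0445). It did not pass in 5 of the 6 fits that left out 1 library (-0.32 without control library 3), nor with upper-quartile factors, library totals, DESeq2 or limma-voom (adjusted p = 0.0569 to 0.0829); LINC01003 did not pass in 4 of them, LINC00909 in 3 and LINC00265 in 2.

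**Figure D4:**
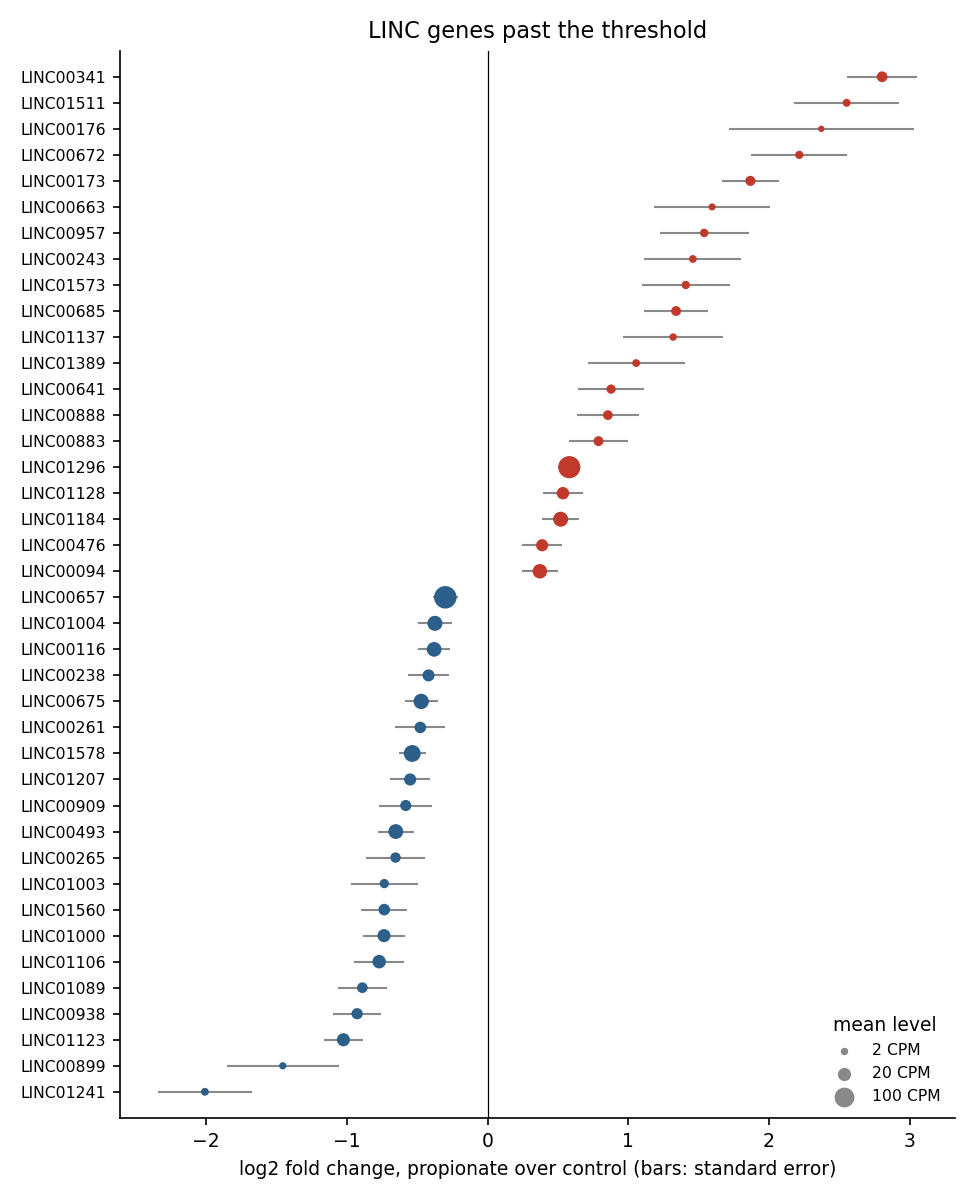
Log2 fold change, propionate over control, with its standard error for the 40 LINC members that passed the adjusted p of 0.05, in order of size; point area grows with mean CPM. The rises reach 2.80 (LINC00341) and the falls -2.01 (LINC01241), and the larger points lie near 0.

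Some LINC members start close to a coding gene on the other strand, as RNAs of shared, bidirectional promoters do. Such a start within 2 kb in GENCODE 29 was found for 17 LINC members whose coding gene could be tested. Of the 5 that were lower, 3 had a coding gene that was lower and none had one that was higher, where 17% of all genes were lower and 17.2% higher. LINC00938 stood beside ARID2, a subunit of a SWI/SNF chromatin remodeller (-1.18, edgeR adjusted p = 8.38e-08). LINC01089 lay beside SETD1B, a histone H3 methyltransferase gene (-1.05, adjusted p = 1.06e-06). LINC00909 lay beside ZNF407, a zinc finger gene (-1.0, adjusted p = 0.000347).

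LINC00938 itself had 7.44, 8.27 and 5.92 CPM with propionate, against 13.0, 14.9 and 13.3 CPM in control. LINC01089 had 5.97, 6.18 and 5.75 CPM with propionate, against 11.8, 10.3 and 11.2 CPM in control. The groups did not overlap in either, with log2 fold changes of -0.93 (SE 0.172, edgeR adjusted p = 0.000354) and -0.89 (SE 0.176, adjusted p = 0.000624). LINC01089 overlaps RHOF on the same strand, and RHOF was higher (1.39, adjusted p = 5.54e-08). LINC00909 overlaps ZNF407 on the opposite strand, so that their reads cannot be told apart.

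The 4 LINC members that were higher had no higher coding partner: ERCC6L2 beside LINC00476 was lower, and ZC3H12A, SLC12A2 and NOTCH1 did not pass. Among the 8 that did not pass, 2 coding partners were higher and 1 was lower. Over coding neighbours in any arrangement, the shares were more even: beside lower members, 6 of 30 were higher and 8 lower, and beside higher members, 5 of 26 were higher and 3 lower. Whether partners move together more often than other pairs was not tested.

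**Figure D5:**
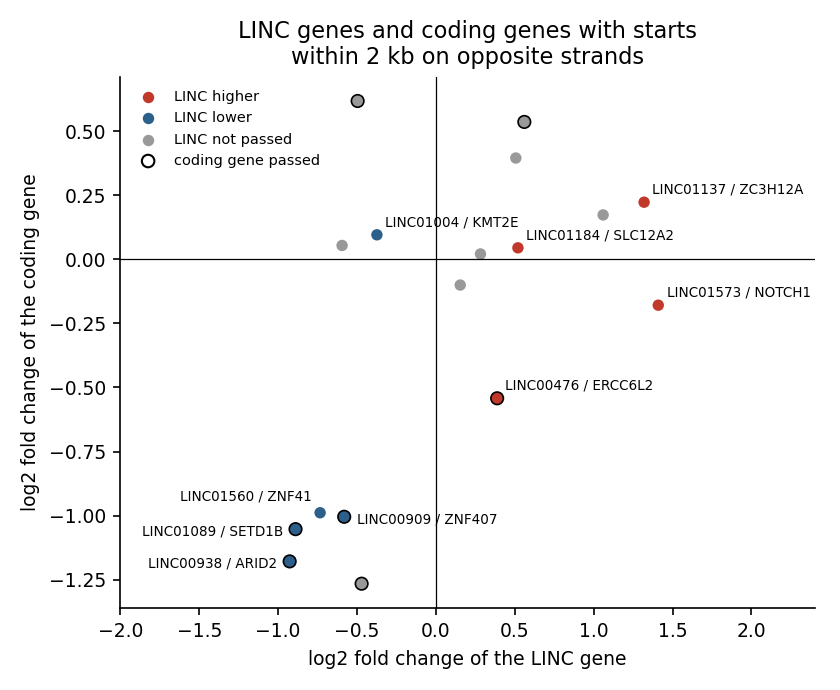
Log2 fold change of the coding gene against that of the LINC member for the 17 pairs whose starts lie within 2 kb on opposite strands; colour gives the LINC member's result and a black ring a coding gene that passed. The 3 named pairs with a ring at the lower left (ARID2, SETD1B and ZNF407) are lower in both genes.

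The 39 members with too few reads to be tested had 30 to 75 reads each, 38 LINC symbols and SNHG4. They entered by their summed reads, some through the reads of 1 group alone, so that the examples below are given as a description, with no test. LINC00482 had 41 reads over the propionate libraries and 1 over the control libraries, a ratio per library total of 39.2 (exact 95% interval 6.65 to 1580). LINC01314 had 40 reads with propionate and 6 in control (ratio 6.37, interval 2.68 to 18.4). LINC00319 had 31 reads with propionate and 3 in control (ratio 9.88, interval 3.08 to 50.5). Each of these 3 reached 30 reads through the propionate libraries alone. Of the 39, 14 had an interval above 1 and 3 had one below 1 (LINC00431, LINC00630 and LINC00970). LINC00630 had 10 reads with propionate and 32 in control (ratio 0.299, interval 0.131 to 0.623). These intervals cover counting error only.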

How the data were processed

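Gene expression was measured in 3 propionate and 3 control libraries. Each library has 1 table of raw counts by gene symbol, deposited by the authors, with whole numbers whose totals differ between libraries. Per the submitters' processing notes, Bowtie2, edgeR and the builds hg19 and GRCh37 were used; the counter, its strand setting and the gene models were not given in the sources used here, so genes overlapping on opposite strands cannot be told apart. No molecular identifiers are in the tables, so reads need not be independent molecules.

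Counts of repeated symbols were summed (286 symbols, 4 of them members). All 13605 genes kept by filterByExpr were tested together with edgeR 4.0.16 (R 4.3.3): TMM factors, quasi-likelihood F test, Benjamini-Hochberg adjusted p under 0.05, no covariate, both directions. CPM used the TMM factors. Library totals were 12746170, 12597381 and 11645597 reads with propionate and 11603288, 11824915 and 11921005 in control. The fit was also run on simulated data, and the outcome of that run is not reported here. As alternatives, DESeq2 1.42.0, voom from limma 3.58.1, changed scaling factors, filters and thresholds, the replicate block, removal of GC trends (splines with 4 degrees of freedom) with the block, and the removal of each library in turn were run.

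Same-numbered libraries deviated together from their group means (r = 0.240, 0.396 and 0.442 over 9284 genes above 10 CPM), above the limit of 0.1, so the numbers count as pairing them. No label states this; it rests on the values alone. The reported values are unpaired, with the block as an alternative.

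Names, neighbours and host contents came from GENCODE 29 and RefSeq (GRCh38); 192 of 195 members matched RefSeq and 180 GENCODE. As the builds differ, no gene coordinates of members are given. Named were MALAT1, NEAT1, GAS5, H19, DANCR, the hosts, up to 15 called LINC members per direction by size, the 6 LINC members of highest CPM and, of each list, up to 4 members per direction with the smallest p. Values of SNHG1, SNHG12 and SNHG19, of untested members, of LINC00476 and its partner, and of coding genes beside MALAT1, NEAT1 and the hosts were chosen after they were seen. The members and lists were chosen with earlier results of these data known. Some results that the naming rule or lists select are not reported here.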

Additional observations from a re-analysis of the deposited data

How the results depend on the processing

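The members' counts (23 higher, 27 lower) stayed within 1.5 times under all alternatives run except stricter thresholds. At an adjusted p under 0.01, members lower numbered 16, LINC members lower 12, hosts higher 0 and lower 4, and all genes lower 1424. With a 2-fold minimum, 12 members were higher and 3 lower, all LINC (12 and 3), hosts numbered 0 and 0, and all genes 681 and 270. The host that was higher was lost with DESeq2 (0). H19 passed with no filter on low counts (1). With the replicate block, all 50 calls kept their direction and passed, 57 members passed, hosts higher numbered 2 and microRNA hosts higher 1 (H19); it changed no other class count by over 1.5 times. With GC trends removed as well, 11 hosts were lower instead of 7, adding SNHG7 (-0.17), SNHG9 (-0.24), SNHG19 (-0.21) and SNHG25 (-0.35), and LINC00342 (0.28) and LINC00987 (0.21) were higher. All genes then numbered 2643 higher and 3332 lower.

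Leaving out 1 library at a time gave 20 to 27 members higher and 20 to 24 lower, LINC members 18 to 23 higher and 15 to 19 lower, hosts 0 to 1 higher and 4 to 6 lower, microRNA hosts 0 to 1 higher, and all genes 1984 to 2086 higher and 1865 to 1999 lower. Signs reversed only for genes that had not passed. With the block and GC trends removed, besides SNHG7 and SNHG9, these were SNHG1 (0.0338), SNHG11 (-0.0152), SNHG16 (0.0015) and LINC00674 (0.0005). Over the left-out libraries, the log2 fold change ranged from -0.1254 to 0.0413 for SNHG1, from -0.0439 to 0.2314 for SNHG11, from -0.0967 to 0.013 for SNHG16, from -0.083 to 0.173 for SNHG21, from -0.1126 to 0.0342 for SNHG5, from -0.0345 to 0.2089 for SNHG9, from -0.0573 to 0.2622 for LINC00987 and from -0.1216 to 0.0112 for LINC00674. The cause was not tested. Depth limits the members with few reads: of the LINC members under 1 CPM, 37 were not tested.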
